A study of Mus musculus with 17 samples.

Results

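Gene expression of cells given the D361E form of p65, described in the series design as non-cleavable, was set against that of cells given wild-type p65. Members were chosen by the source name of each sample alone, which gave 8 arrays of the 17 in the series: 4 labelled D361E and 4 labelled WT. All were 1-colour (Cy3) Agilent arrays of total RNA from DA1-3b, a murine Bcr-Abl+ leukaemia cell line (strain C3H eOuJ) kept in DMEM with serum and transfected with plasmids that carry p65. The other 9 arrays came from the same line given the part 1-361, the part 362-549 or both parts together (1-361+362-549, n = 3 each). Cells with an empty plasmid were not analysed here, so nothing below says what either p65 did relative to none. The labels do not say whether lines were clones or pools, whether arrays came from separate cultures, or how much of each protein was made, and they mention no removal of the cells' own Rela gene. So p-values compare the groups with array-to-array spread, part of which may be technical, and precision is limited by how few arrays there are.

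RelA (p65) is a subunit of NF-kB, a transcription factor family that inhibitor proteins hold in the cytoplasm until a signal frees it. The N-terminal Rel homology domain of p65 pairs with a partner subunit and binds DNA, and its C-terminal part recruits the machinery that starts transcription. In white blood cells the factor is best known for switching on chemokine, cytokine and survival genes. A protease that cuts p65 between these parts separates DNA binding from transactivation, and the D361E change keeps an acidic residue at the cut site while removing the aspartate that caspases need.

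Levels are given as log2 of the processed spot signal minus the log2 of that array's 75th percentile, so that 0 is the 75th percentile and each unit is 1 doubling. Of 15254 genes tested, 74 (0.485%) differed between D361E and WT arrays at an adjusted p under 0.05 (limma, Benjamini-Hochberg). Of these, 47 were higher in D361E (0.308% of all genes) and 27 were lower (0.177%). The difference was over 2-fold for 59 of them and over 4-fold for 26. All 74 had D361E and WT arrays that did not overlap, as did 3.62% of all genes. Leading title numbers place each D361E array beside a WT array in 4 rounds, which are inferred and not named by the labels. With round as a block the count was 248 (1.63%), made up of 121 higher (0.793%) and 127 lower (0.833%). All 74 were among them. That block was fitted over all 17 arrays; over the 8 D361E and WT arrays alone it kept 46 of the 74 calls and 17 of the 174 that only the block over 17 arrays had made. Named calls lost there were Prg2, Ifitm6, Cd163l1, Hbb-y, Hba-a2, Scel, Ly6c1, C1s1, Fcgr2b, Celf5, Cebpe, Bfsp2, Cxcr4, Chst11, Tnnt1, Lxn, Tnfsf9, Me1, Chrna2 and Clu (adjusted p = 0.0516 to 0.212). Without scaling between arrays the count was 50, with 21 higher and 29 lower, and the median difference over all genes was -0.19, against 0.03 with scaling. With normexp background correction (offset 50) in place of the processed signal the count was 12, and the named genes among them were Prg2, Hbb-bt, Hbb-b2, Hba-a2, Hif1a, Cebpe, Grb7, Clu, Cpa3, Itih3 and Trpc6. Every other call named below was lost under that correction. Calls ended by leaving out 1 array are given with the genes, and the count without 1 array lay between 39 and 78.

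**Figure D1:**
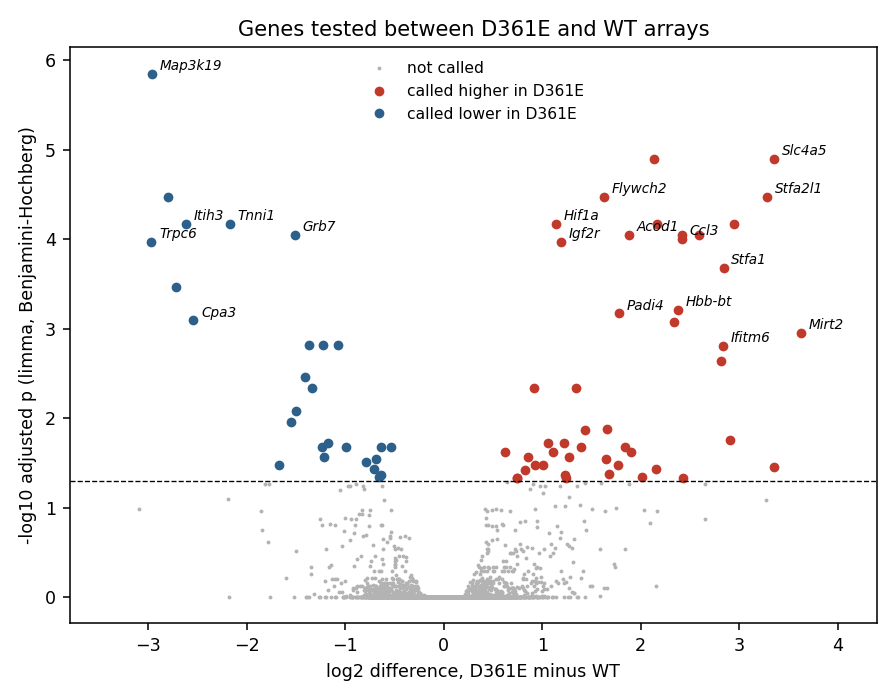
Each point is 1 of the 15254 genes tested, with the log2 difference (D361E minus WT) across and the -log10 of limma's adjusted p up the page; the dashed line is an adjusted p of 0.05. The 47 called genes on the right reach 3.63 (Mirt2) and the 27 on the left reach -2.97 (Trpc6).

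The brightness of the arrays overlapped between the groups. The 75th percentile of the processed signal was 668 to 899 on D361E arrays and 773 to 1024 on WT arrays, and arrays correlated with each other across genes at 0.960 to 0.995 (genes are not independent replicates). The first principal component of the 8 arrays held 49.3% of the variance and placed D361E replicate 4 and WT replicate 4 at one end (57.9 and 34.2) and D361E replicate 1 and WT replicate 3 at the other (-32.7 and -47.3). Slides 1 and 3 held an array of each group. All 74 called genes had the same direction on both, but this could not have come out otherwise, since their groups did not overlap. With slide as a block, 24 of the 74 kept their call, and the named ones were Slc4a5, Stfa2l1, Stfa1, Cstdc4, Csta2, Ccl3, Hbb-bt, Hbb-b2, Acod1, Padi4, Flywch2, Igf2r, Hif1a, Chrna2, Grb7, Tnni1, Itih3, Map3k19 and Trpc6.

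Rela itself did not separate the groups. Its probe (chr19:5648070-5648129, build mm9) measured 4.62, 4.79, 4.66 and 4.88 on the D361E arrays, against 4.75, 4.68, 4.84 and 4.85 on the WT arrays. The groups overlapped, and the difference was -0.04 ± 0.10 (SE, adjusted p = 1.00). The files do not say whether this probe can see the plasmid transcripts, so it does not check the labels.

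Stefin A genes rose together. Stefins are small proteins inside the cell that block cysteine cathepsins, the proteases of lysosomes, and the mouse holds a cluster of near copies on chromosome 16 that is used by myeloid cells. Of 11 stefin and cystatin genes measured (20 listed), 6 were called higher in D361E and none lower, against 0.308% and 0.177% of all genes. The median difference was 2.15, against 0.03 over all genes. With normexp background correction none of the 6 was called and the median of the list was 0.41, and all 6 probes were faint, below the 75th percentile on every array. In bulk RNA, fewer cells that make a transcript and less of it per cell cannot be told apart. The 6 were Stfa2l1, Stfa1, Stfa2, Cstdc4, Csta2 and Cstdc5, all on chromosome 16. There 7 of 482 tested genes were called (1.45%, against 0.485% of all genes), and all 7 were higher. The other call was a transcript without an ordinary symbol at chr16:36136075-36137745 (build mm9), beside these 6, so the calls on this chromosome come from 1 stretch.

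Stfa2l1 measured -3.55, -3.29, -3.10 and -3.08 on the D361E arrays, against -7.42, -6.48, -6.48 and -5.79 on the WT arrays. Its probe was not well above background on any WT array, so the level in D361E was at least 3.5-fold higher (adjusted p = 3.37e-05). Such a bound sets the mean of the brighter group against, on each dim array, the higher of the lowest signal that passed the background test and the probe's own signal. Stfa2 measured -3.41, -3.51, -3.32 and -3.15 on the D361E arrays, against -7.46, -6.14, -5.71 and -5.36 on the WT arrays. It too was dim on every WT array and at least 3.28-fold higher in D361E (adjusted p = 0.00229). The lowest D361E array lay above the highest WT array by more than 1 doubling for both.

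Stfa1 measured -2.89, -2.57, -2.58 and -1.71 on the D361E arrays, against -5.87, -5.08, -5.72 and -4.45 on the WT arrays, where 2 of 4 WT arrays were well above background. It was higher by 2.84 ± 0.32 (SE), or 7.17-fold (adjusted p = 2.10e-04). Cstdc4 measured -1.70, -1.28, -0.92 and -1.24 on the D361E arrays, against -4.29, -3.98, -3.98 and -3.25 on the WT arrays. It was higher by 2.59 ± 0.27 (adjusted p = 8.91e-05). The weakest D361E array of either gene stood clear of the strongest WT array.

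Csta2 measured -1.99, -1.80, -1.61 and -1.91 on the D361E arrays, against -4.51, -3.92, -3.75 and -3.81 on the WT arrays. The rise was 2.17 ± 0.21, a 4.49-fold change (adjusted p = 6.75e-05). Cstdc5 measured -1.92, -1.36, -1.34 and -0.85 on the D361E arrays, against -4.02, -3.07, -3.77 and -3.20 on the WT arrays. Its groups did not overlap either, with a rise of 2.15 ± 0.43 (adjusted p = 0.0366). This call ended when any 1 of the 8 arrays was left out (adjusted p up to 0.157), while the other 5 stefin calls survived every such omission. With slide as a block the adjusted p was 0.0683 for Stfa2 and 0.433 for Cstdc5, and the other 4 stayed called.

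Other members of the list were not called. Cst3, Cst7 and Cstb, which encode cystatins C and F and stefin B, differed by 0.06 ± 0.13, 0.02 ± 0.16 and 0.01 ± 0.13 (Cst7 and Cstb named after their values were seen). Stfa3 and Csta3 differed by 1.59 ± 0.46 and 1.06 ± 0.54 (adjusted p = 0.291 and 1.00). The 6 called probes shared runs of 5 to 25 identical bases, the longest between Csta2 and Cstdc5, and the other pairs shared at most 9. Probes were set against each other and not against the transcripts of the other genes. So signal may be shared among these near copies, and the 6 calls may not be 6 separate readings.

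The promoters of 5 of these genes are printed because they resemble each other and moved together. They come from RefSeq (GRCm38.p6), each 300 bases that span the annotated start, 5′ to 3′. Capitals mark the longest run that all 5 share, 13 bases found in 9 of 32851 promoters in the table (0.0274%), 5 of them these and the other 4 those of Csta3, Cstdc3, Stfa3 and Gm7260. The run ends 19 to 23 bases before the start in Stfa1, Stfa2, Stfa2l1 and Cstdc4, and reaches 1 base past the annotated start in Cstdc5. Positions are chr16:36276898-36277197 (plus strand) for Stfa1, chr16:36408314-36408613 (minus strand) for Stfa2, chr16:36156561-36156860 (plus strand) for Stfa2l1, chr16:36183962-36184261 (plus strand) for Cstdc4 and chr16:36367521-36367820 (minus strand) for Cstdc5.
Stfa1: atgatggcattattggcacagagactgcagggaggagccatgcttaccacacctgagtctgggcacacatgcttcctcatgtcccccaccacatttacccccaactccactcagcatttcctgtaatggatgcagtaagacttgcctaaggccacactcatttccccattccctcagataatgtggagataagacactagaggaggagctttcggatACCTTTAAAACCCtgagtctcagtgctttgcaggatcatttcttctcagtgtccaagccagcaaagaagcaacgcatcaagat
Stfa2: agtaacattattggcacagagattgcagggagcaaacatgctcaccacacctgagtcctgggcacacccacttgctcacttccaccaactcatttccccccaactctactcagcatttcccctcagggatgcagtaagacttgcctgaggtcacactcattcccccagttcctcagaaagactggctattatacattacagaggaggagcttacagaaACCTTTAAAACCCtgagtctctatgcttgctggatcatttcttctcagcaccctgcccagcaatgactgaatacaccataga
Stfa2l1: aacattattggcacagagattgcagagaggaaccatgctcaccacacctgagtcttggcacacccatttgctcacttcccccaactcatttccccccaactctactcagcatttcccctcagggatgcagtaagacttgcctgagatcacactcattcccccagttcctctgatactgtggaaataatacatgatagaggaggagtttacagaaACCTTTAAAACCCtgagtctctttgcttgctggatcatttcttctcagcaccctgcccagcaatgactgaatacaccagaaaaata
Cstdc4: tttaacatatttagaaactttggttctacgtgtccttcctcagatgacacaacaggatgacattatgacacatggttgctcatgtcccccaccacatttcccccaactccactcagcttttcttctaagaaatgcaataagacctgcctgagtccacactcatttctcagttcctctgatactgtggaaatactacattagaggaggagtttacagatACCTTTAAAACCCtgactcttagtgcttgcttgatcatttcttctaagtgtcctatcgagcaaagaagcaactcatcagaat
Cstdc5: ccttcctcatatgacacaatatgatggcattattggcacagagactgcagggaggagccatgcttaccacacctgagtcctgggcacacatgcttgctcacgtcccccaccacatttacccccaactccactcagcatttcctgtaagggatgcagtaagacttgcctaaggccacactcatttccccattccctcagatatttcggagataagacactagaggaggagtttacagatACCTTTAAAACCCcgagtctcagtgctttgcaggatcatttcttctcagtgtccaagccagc

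Aligned to each other, these 5 promoters were 70.3% to 96.4% identical, with Stfa1 and Cstdc5 the closest pair, whereas the promoter of Csta2, called as well, was 50.5% to 55.4% identical to them. None of the 6 held the kB consensus, the site that NF-kB binds, on either strand. Each of the 5 held GAGGAA, the core that PU.1 binds (28.3% of all promoters), and TTNNGNAA, a loose form of the C/EBP site (40.7% of all promoters), while Csta2 held neither. A match to such letters is a description of the sequence.

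**Figure D2:**
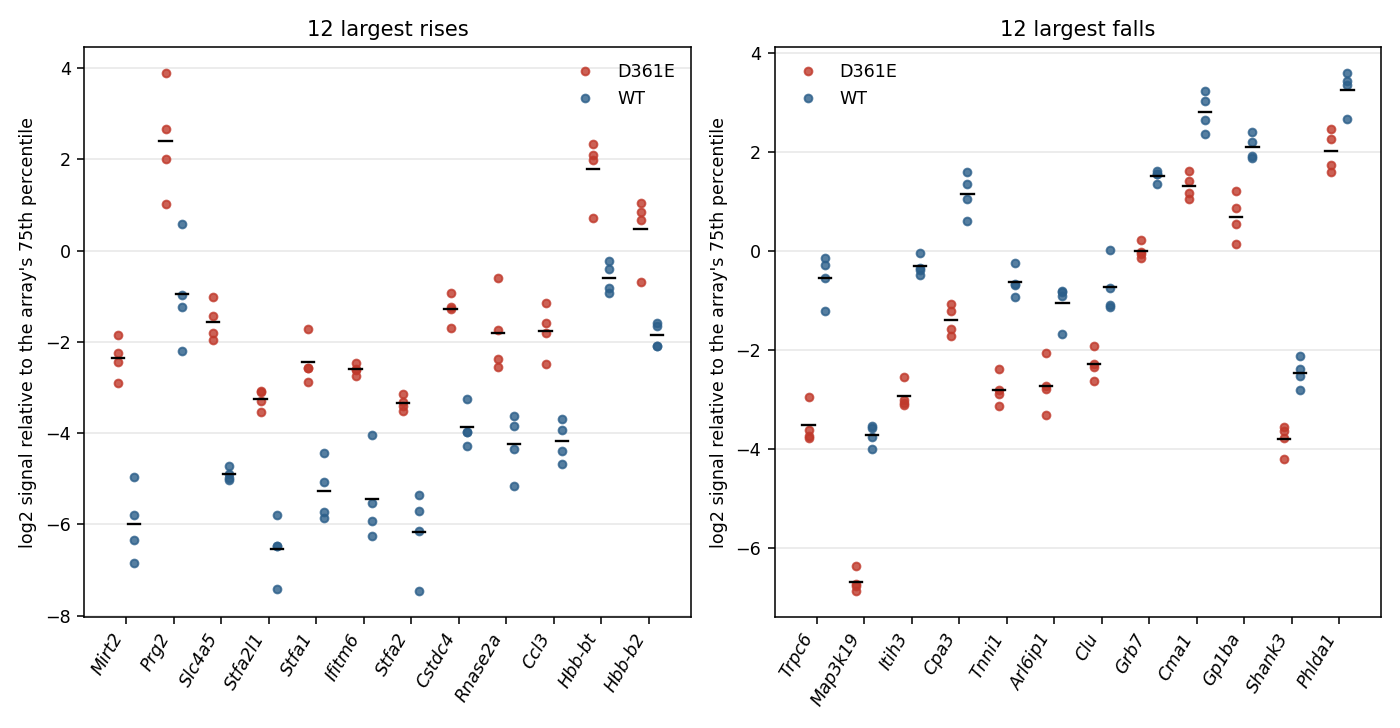
Points are single arrays (log2 signal relative to the 75th percentile) for the 12 largest rises and the 12 largest falls among called genes with an ordinary symbol, D361E left of WT within each gene, and bars are group means. No gene shown has overlapping groups; Prg2 spreads over the widest range within D361E, 1.02 to 3.89.

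Chemokines, which draw leukocytes to a site and include textbook NF-kB targets, were called higher in 2 of 13 cases and lower in none. Over all genes the shares were 0.308% and 0.177%. Ccl3 (MIP-1 alpha) measured -1.81, -1.15, -1.58 and -2.48 on the D361E arrays, against -4.39, -3.70, -3.94 and -4.67 on the WT arrays. The weakest D361E array stood above the strongest WT array by more than 1 doubling, and the rise was 2.42 ± 0.25, or 5.34-fold (adjusted p = 9.99e-05). It kept its call without any 1 array and with slide as a block. Ccl6, a chemokine of mouse myeloid cells, measured -1.71, -1.18, -1.41 and -0.87 on the D361E arrays, against -3.17, -2.76, -3.07 and -1.92 on the WT arrays. D361E replicate 1 and WT replicate 4 were the nearest arrays, and the rise was 1.43 ± 0.24 (adjusted p = 0.0134). Its call ended without D361E replicate 2 or WT replicate 1, 2 or 3 (adjusted p up to 0.0616).

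Another pair of CC chemokines was called only with the round block over 17 arrays, and not with that over 8 (adjusted p = 0.0972 for Ccl9 and 0.135 for Ccl4). Ccl9 differed by 1.42 ± 0.36 (adjusted p = 0.142, and 0.0311 with the round block). Ccl4, which lies beside Ccl3 in the genome, differed by 1.27 ± 0.36 (adjusted p = 0.269, and 0.00978 with the round block). Across the 13 chemokines the median difference was 0.28, and 7 were higher in every round, as were 10.5% of all genes.

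Among called genes outside the chemokines, Acod1 makes itaconate in activated macrophages and Padi4 turns arginine into citrulline on histones. Acod1 measured -1.69, -1.13, -0.93 and -1.48 on the D361E arrays, against -3.19, -2.94, -3.62 and -3.004 on the WT arrays. It rose by 1.88 ± 0.19 (adjusted p = 8.91e-05), with every D361E array above every WT array. Padi4 measured -0.26, 0.13, -0.15 and 0.08 on the D361E arrays, against -2.29, -1.88, -1.99 and -1.17 on the WT arrays. The rise of 1.78 ± 0.22 (adjusted p = 6.78e-04) also held with slide as a block (adjusted p = 0.0137) and without any 1 array.

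Olr1, the receptor for oxidised low-density lipoprotein, measured -2.79, -2.19, -2.10 and -2.21 on the D361E arrays, against -4.14, -3.05, -3.64 and -3.52 on the WT arrays. The closest arrays of the 2 groups, D361E replicate 1 and WT replicate 2, were apart by less than the rise of 1.27 ± 0.24 (adjusted p = 0.0271). The call ended without D361E replicate 2, 3 or 4 or WT replicate 1, 3 or 4 (adjusted p up to 0.104). Clec7a, the beta-glucan receptor dectin-1, rose by 1.39 ± 0.25 (adjusted p = 0.0213), with 2 of 4 WT arrays well above background. Fcgr2b, the inhibitory receptor for IgG, rose by 1.22 ± 0.22 (adjusted p = 0.0192). Gpr132, a receptor for lysolipids, rose by 1.34 ± 0.21 (adjusted p = 0.00457) and kept its call without any 1 array, unlike the others. Clec7a stayed called only without D361E replicate 3 or 4 (adjusted p up to 0.0779), and the call of Fcgr2b ended without D361E replicate 2 or 3 or WT replicate 1 or 2 (up to 0.0922).

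Cebpe, the transcription factor of late granulocyte maturation, was already bright in both groups. It measured 4.39, 4.53, 4.21 and 4.58 on the D361E arrays, against 3.50, 3.40, 3.03 and 4.09 on the WT arrays. The groups did not overlap, and the rise of 0.92 ± 0.18 was 1.89-fold (adjusted p = 0.0336, up to 0.145 when 1 array other than WT replicate 4 was left out). It was the only called member of 7 neutrophil and granule genes measured, whose median difference was 0.17, and 0.308% of all genes were called higher. Of the same list Elane, Prtn3, Mmp9, Chil3 and Csf3r were well above background on all 8 arrays, and S100a8, Ly6g and Mmp8 on none (named after their values were seen).

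Ifitm6, of the interferon-induced transmembrane family, measured -2.62, -2.46, -2.75 and -2.59 on the D361E arrays, against -5.54, -5.92, -6.25 and -4.05 on the WT arrays. D361E arrays lay close together while WT replicate 4 stood above the other WT arrays, the only one well above background, and the rise was 2.83 ± 0.39 (adjusted p = 0.00155). The probe of Ifitm6 entered the test only through the D361E arrays, so this p is not separate support for the rise. Ly6c1, a monocyte surface marker, measured -4.25, -3.79, -4.07 and -4.39 on the D361E arrays, against -6.18, -4.68, -5.28 and -5.35 on the WT arrays. It was dim on 3 of 4 WT arrays and rose by 1.24 ± 0.26 (adjusted p = 0.0472), a call lost without any array but WT replicate 2 (adjusted p up to 0.183). Cxcr4, the receptor for CXCL12, measured -1.75, -1.88, -1.78 and -1.51 on the D361E arrays, against -2.94, -2.79, -2.46 and -2.18 on the WT arrays. Its rise was 0.86 ± 0.16 (adjusted p = 0.0273), the smallest of these 3, and it was lost without any array but WT replicate 4 (adjusted p up to 0.137).

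Further called rises were Cd52, a small glycoprotein of leukocyte membranes (1.64 ± 0.31), C1s1, a complement protease (1.23 ± 0.25), and Asb2, a substrate adaptor of ubiquitin ligases (1.66 ± 0.28). Cd52 and C1s1 stayed called only without D361E replicate 1 or WT replicate 4 (adjusted p up to 0.136 and 0.145), and Asb2 lost its call without D361E replicate 2 or 3 or WT replicate 1 (up to 0.0605). For Asb2 2 of 4 WT arrays were well above background, and its probe entered the test only through the D361E arrays. Another Asb2 probe, too dim to pass the filter, differed by 0.68. Cd163l1, a scavenger receptor, was dim on every WT array and at least 2.06-fold higher, and Scel was at least 1.5-fold higher. The probe of Scel entered the test only through the D361E arrays, so its p is not separate support. Cd163l1 and Scel were both lost in 6 of 8 omissions. Cd163l1 was kept only without D361E replicate 4 or WT replicate 3, and Scel only without WT replicate 3 or 4 (adjusted p up to 0.156 and 0.15). Itgax, the integrin CD11c, had an estimate of 3.27 ± 0.74 that missed the threshold (adjusted p = 0.0826) and was called with the round block (adjusted p = 0.00117 over 17 arrays and 0.067 over 8), with WT replicate 4 at -1.64 far above the other WT arrays (-5.97 to -5.003). Of 7 monocyte and macrophage markers measured only Ly6c1 was called, and 0.308% of all genes were called higher. Csf1r, Adgre1, Cd68, Lyz1 and Fcgr1 were well above background on all 8 arrays, and Cd14, Mrc1, Msr1 and Ms4a7 on none (named after their values were seen). The summed level of that list, in units of the 75th percentile, was 3.62 to 5.51 on D361E arrays and 2.48 to 5.91 on WT arrays, and its part in the rises was not tested.

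2 granule genes of eosinophils rose, with wide spread between arrays. Prg2, the major basic protein, measured 1.02, 2.02, 2.66 and 3.89 on the D361E arrays, against -0.97, -1.24, -2.20 and 0.59 on the WT arrays. D361E replicate 1 and WT replicate 4 came within 1 doubling of each other, and the rise was 3.35 ± 0.66 (adjusted p = 0.0348). Rnase2a, an eosinophil-type ribonuclease, measured -2.37, -2.55, -1.75 and -0.60 on the D361E arrays, against -5.16, -4.36, -3.84 and -3.63 on the WT arrays. Its rise was 2.43 ± 0.50 (adjusted p = 0.0472), and the call ended without any 1 array (adjusted p up to 0.188). That of Prg2 ended without D361E replicate 2, 3 or 4 or WT replicate 1, 2 or 3 (adjusted p up to 0.14), and with slide as a block it stood at 0.952.

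Epx, eosinophil peroxidase, differed by 2.04 ± 0.49 without being called (adjusted p = 0.107, and 0.0695 with the round block), and Siglecf by -0.01 ± 0.26. The defining genes Ear1, Ccr3, Il5ra and Alox15 were not well above background on any of the 8 arrays. The summed level of the 3 measured genes was 2.75 to 16.8 on D361E arrays and 0.883 to 2.74 on WT arrays, and whether cells of another kind took part was not tested.

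Every erythroid gene that was called was a globin, and all were higher in D361E. Globins form the oxygen carrier of red cells; Hba-a2 encodes an adult alpha chain, Hbb-bt and Hbb-b2 adult beta chains, and Hbb-y and Hbb-bh1 embryonic beta-like chains. Of 10 genes on the erythroid list measured (15 listed), 4 were called higher and none lower, against 0.308% and 0.177% of all genes. The list median was 1.70, and Hbb-y, not on the list, was called as well. Hbb-bt measured 1.99, 2.10, 2.33 and 0.71 on the D361E arrays, against -0.92, -0.41, -0.23 and -0.82 on the WT arrays. D361E replicate 4 was the lowest of its group and still above every WT array, and the rise was 2.38 ± 0.30, or 5.2-fold (adjusted p = 6.18e-04).

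Hbb-b2 measured 0.68, 0.85, 1.05 and -0.68 on the D361E arrays, against -2.09, -1.58, -1.66 and -2.10 on the WT arrays. It rose by 2.33 ± 0.30 (adjusted p = 8.40e-04), with D361E replicate 4 again the lowest of its group. Hba-a2, the brightest called gene, measured 6.96, 6.89, 7.18 and 5.78 on the D361E arrays, against 4.21, 4.83, 5.77 and 4.63 on the WT arrays. D361E replicate 4 and WT replicate 3 nearly met, and the rise was 1.84 ± 0.33 (adjusted p = 0.0213). Hbb-bh1 measured -1.60, -1.53, -1.14 and -2.57 on the D361E arrays, against -3.53, -3.36, -2.87 and -3.78 on the WT arrays. It rose by 1.68 ± 0.34 (adjusted p = 0.0418), and Hbb-y by 1.90 ± 0.35 (adjusted p = 0.0239). For Hbb-y 2 of 4 WT arrays were well above background.

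The calls of Hba-a2 and Hbb-bh1 ended without D361E replicate 1, 2 or 3 or WT replicate 1, 2 or 4 (adjusted p up to 0.0871 and 0.152), and that of Hbb-y without any array but D361E replicate 2 or WT replicate 3 (up to 0.118). Those of Hbb-bt and Hbb-b2 survived every omission and the slide block (adjusted p = 0.00923 and 0.011). Hba-a1 was called with the round block over 17 arrays and not over 8 (1.74 ± 0.41, adjusted p = 0.101 without it, 0.0223 over 17 and 0.0789 over 8). Hbb-bs, an adult beta chain, had an estimate of 1.73 ± 0.55 and was not called (adjusted p = 0.426). The globin probes shared at most 8 identical bases in a row, which does not say whether a probe also binds the transcript of another globin.

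Klf1, the erythroid transcription factor, and Epor, the erythropoietin receptor, differed by 0.02 ± 0.17 and 0.00 ± 0.10 and were not called, nor were Tfrc, the transferrin receptor (-0.36 ± 0.34), and Ermap (-0.11 ± 0.22). Klf1, Epor and Ermap are named after their values were seen. Alas2 and Ahsp, which red cell precursors use, were not well above background on any of the 8 arrays. The summed level of the erythroid list was 79.1 to 199.7 on D361E arrays and 33.5 to 78.0 on WT arrays, and the part of other cells in it was not tested.

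The largest rises outside these groups were a noncoding RNA and a transporter. Mirt2, a long noncoding RNA, measured -2.43, -2.26, -1.85 and -2.90 on the D361E arrays, against -6.35, -5.79, -6.86 and -4.95 on the WT arrays. It was dim on every WT array and at least 6.51-fold higher in D361E (adjusted p = 0.00111). Slc4a5, a sodium bicarbonate cotransporter, measured -1.81, -1.44, -1.96 and -1.02 on the D361E arrays, against -4.73, -5.03, -4.89 and -4.98 on the WT arrays. WT arrays lay close together, 1 of them well above background, and the rise of 3.35 ± 0.27 (adjusted p = 1.28e-05) was larger than the spread within either group. Flywch2 (1.63 ± 0.14), Igf2r, the receptor that carries mannose-6-phosphate proteins to lysosomes (1.19 ± 0.13), and Bfsp2 (0.92 ± 0.14) also kept their calls without any 1 array.

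Among the 27 falls, the largest was in Trpc6, a calcium-permeable channel of the plasma membrane. It measured -3.74, -3.60, -3.77 and -2.94 on the D361E arrays, against -0.27, -0.54, -1.21 and -0.14 on the WT arrays. Every D361E array lay more than 1 doubling below every WT array, and the level fell by 2.97 ± 0.32, or 7.84-fold (adjusted p = 1.08e-04). Map3k19, a protein kinase, measured -6.36, -6.71, -6.85 and -6.75 on the D361E arrays, against -3.98, -3.74, -3.56 and -3.53 on the WT arrays. It was dim on every D361E array, so WT was at least 2.77-fold higher, with the smallest adjusted p of all genes (1.42e-06). Its probe entered the test only through the WT arrays, where it was bright, so this p is not separate support for the difference.

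Itih3, a heavy chain of the inter-alpha-trypsin inhibitor that stabilises the extracellular matrix, measured -2.997, -2.53, -3.06 and -3.11 on the D361E arrays, against -0.37, -0.47, -0.34 and -0.03 on the WT arrays. It fell by 2.62 ± 0.26 (adjusted p = 6.75e-05), with both groups tight. Tnni1, the slow-muscle form of troponin I, measured -2.80, -2.88, -2.38 and -3.13 on the D361E arrays, against -0.66, -0.68, -0.24 and -0.92 on the WT arrays. It fell by 2.17 ± 0.21 (adjusted p = 6.75e-05), and Tnnt1, which encodes its troponin T partner, fell by 0.64 ± 0.12 (adjusted p = 0.0213), a call lost without D361E replicate 3 or 4 or WT replicate 1, 2 or 4 (up to 0.0924). Grb7, an adaptor of receptor tyrosine kinases, measured -0.05, -0.13, 0.22 and -0.01 on the D361E arrays, against 1.55, 1.36, 1.63 and 1.55 on the WT arrays. Its fall of 1.51 ± 0.16 (adjusted p = 8.91e-05) left the groups more than 1 doubling apart. Trpc6, Map3k19, Itih3, Tnni1 and Grb7 all kept their calls without any 1 array and with slide as a block.

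Cpa3 and Cma1, both mast cell proteases, were lower in D361E arrays. Of 8 mast cell and basophil genes measured (15 listed) 2 were called lower and none higher, against 0.177% and 0.308% of all genes. The list median was -0.74. Cpa3, the mast cell carboxypeptidase, measured -1.57, -1.07, -1.21 and -1.71 on the D361E arrays, against 0.60, 1.60, 1.35 and 1.05 on the WT arrays. It fell by 2.54 ± 0.33, or 5.83-fold (adjusted p = 8.12e-04), with all D361E arrays below 0 and all WT arrays above it. Cma1, the chymase, measured 1.05, 1.41, 1.62 and 1.17 on the D361E arrays, against 2.37, 3.04, 3.23 and 2.64 on the WT arrays. It fell by 1.51 ± 0.24 (adjusted p = 0.00839), again with no overlap.

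Both calls survived the omission of any 1 array, and with slide as a block the adjusted p was 0.145 and 0.235. Mcpt4, another chymase, was lower by an estimate of -1.24 ± 0.32 and was called only with the round block over 17 arrays (adjusted p = 0.157 without it, 0.0259 over 17 and 0.0896 over 8). The proteases Mcpt8 and Tpsb2 were not called, with estimates of -1.79 ± 0.50 (adjusted p = 0.245, well above background on 1 of 4 D361E and 3 of 4 WT arrays) and 0.40 ± 0.35 (adjusted p = 1.00). Gata2, Hdc and Fcer1a, which mast cells and basophils also use, differed by -0.02 ± 0.16, -0.09 ± 0.13 and -0.24 ± 0.27 (named after their values were seen). Kit, Ms4a2 and Mcpt1 were not well above background on any of the 8 arrays, and the summed level of the list was 35.6 to 61.0 on D361E arrays and 46.3 to 62.1 on WT arrays; its part in the falls was not tested.

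The promoter of Cpa3 (RefSeq, GRCm38.p6, chr3:20242132-20242431 (minus strand)) is printed as that of the mast cell gene that changed most, with AGATAA, the site of GATA factors, in capitals. Of all promoters 11.2% held that word on either strand. Counted by gene, with any promoter of a gene enough, 8.44% of the 9708 tested genes with a promoter held it. So did 4 of the 17 called falls with a promoter in the table and 4 of the 33 rises.
Cpa3: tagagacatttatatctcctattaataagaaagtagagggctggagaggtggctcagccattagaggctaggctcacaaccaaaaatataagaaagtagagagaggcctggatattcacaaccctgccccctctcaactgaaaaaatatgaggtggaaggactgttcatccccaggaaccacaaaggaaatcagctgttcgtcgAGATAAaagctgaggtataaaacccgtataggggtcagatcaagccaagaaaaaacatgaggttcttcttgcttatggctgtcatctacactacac

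Gp1ba, part of the platelet receptor for von Willebrand factor, measured 0.54, 0.87, 1.21 and 0.14 on the D361E arrays, against 1.89, 2.40, 2.21 and 1.92 on the WT arrays. It fell by 1.41 ± 0.21 (adjusted p = 0.00344), the only call among 9 megakaryocyte and platelet genes, whose median was 0.01. Over all genes 0.177% were called lower. Clu, the chaperone clusterin, measured -1.91, -2.33, -2.27 and -2.63 on the D361E arrays, against -1.08, -0.74, 0.03 and -1.13 on the WT arrays. It fell by 1.55 ± 0.26 (adjusted p = 0.011). WT replicate 3 was the highest array for Clu and did not set the call, which survived every omission.

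Shank3, a scaffold protein of synapses, measured -3.78, -3.54, -3.62 and -4.20 on the D361E arrays, against -2.37, -2.12, -2.51 and -2.80 on the WT arrays. It fell by 1.33 ± 0.20 (adjusted p = 0.00457) without overlap. Phlda1 measured 2.26, 1.74, 2.48 and 1.61 on the D361E arrays, against 3.35, 3.44, 3.59 and 2.67 on the WT arrays. The fall of 1.24 ± 0.22 (adjusted p = 0.0213) ended without D361E replicate 2 or 4 or WT replicate 1, 2 or 3 (up to 0.0945). Arl6ip1, a protein that shapes the endoplasmic reticulum, measured -2.79, -2.72, -3.30 and -2.06 on the D361E arrays, against -0.82, -0.81, -1.67 and -0.90 on the WT arrays. It fell by 1.67 ± 0.33 (adjusted p = 0.0336), and the call was lost without any array but D361E replicate 4 or WT replicate 3 (up to 0.145).

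Me1, the malic enzyme that makes NADPH, measured 0.78, 0.68, 0.99 and 0.49 on the D361E arrays, against 1.31, 1.49, 1.77 and 1.21 on the WT arrays. It fell by 0.71 ± 0.14 (adjusted p = 0.0374, up to 0.149 without any array but D361E replicate 3 or WT replicate 4), the 1 call among 29 sterol and lipid synthesis genes. Over all genes 0.177% were called lower. Of the 29, 9 were lower and 1 was higher in every round, against 9.92% and 10.5% of all genes. Other falls were F13a1, the A chain of coagulation factor XIII (0.99 ± 0.18), Tnfsf9, the ligand of 4-1BB (0.69 ± 0.13), Lxn, an inhibitor of carboxypeptidases (0.65 ± 0.13), and Chst11, a sulfotransferase of chondroitin chains (0.63 ± 0.13). These calls were lost without any array but WT replicate 3 for F13a1, WT replicate 1 for Tnfsf9, and D361E replicate 4 or WT replicate 1 for Chst11, and without any array for Lxn (adjusted p up to 0.0981, 0.136, 0.188 and 0.201). Tulp2 fell by 1.07 ± 0.15 and Chrna2, a nicotinic receptor subunit, by 1.23 ± 0.17.

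**Figure D3:**
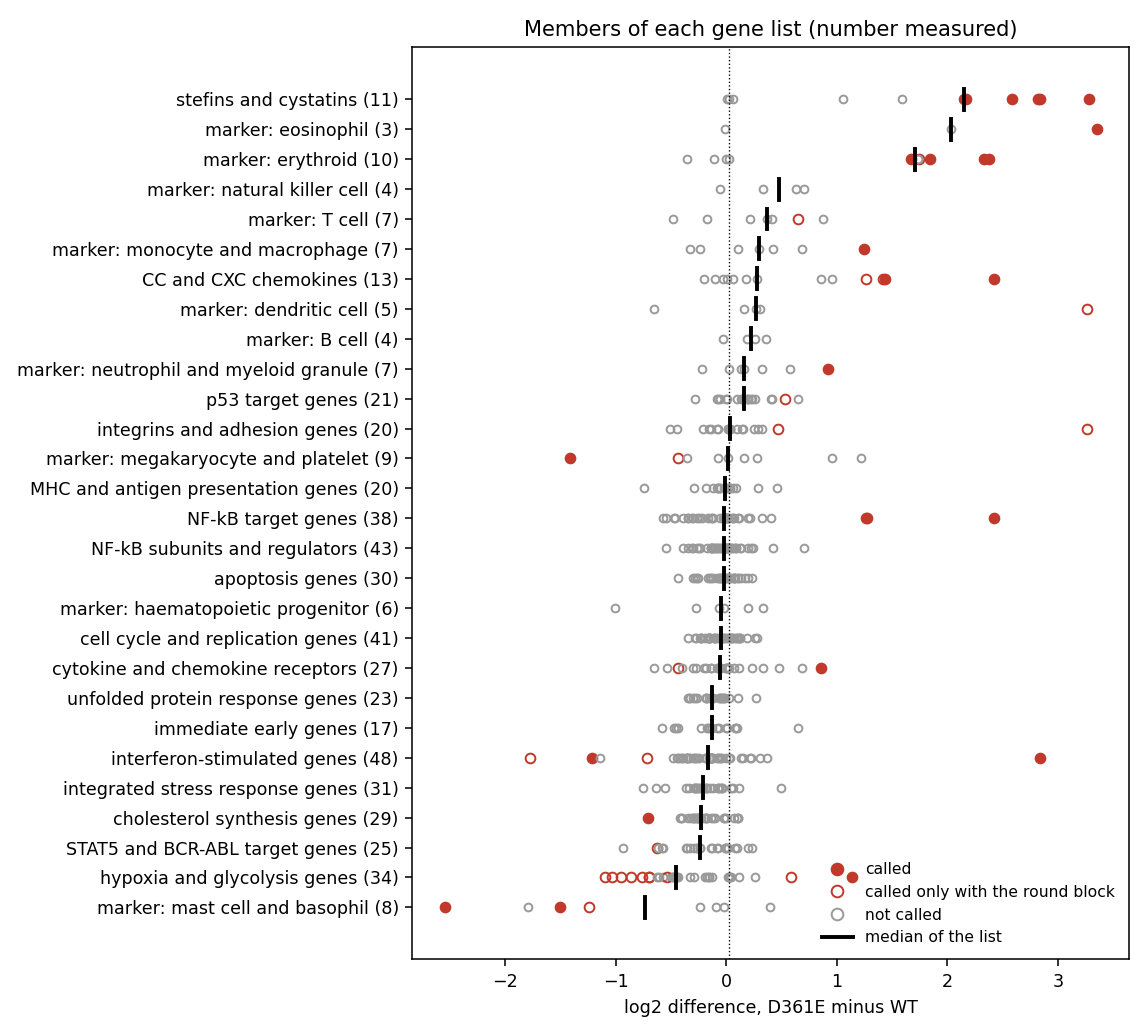
Each circle is a measured list member at its log2 difference (D361E minus WT), filled where called, ringed in red where called only with the round block, and grey otherwise; bars are list medians and the dotted line is the median of all genes, 0.03. Stefins (2.15) and erythroid genes (1.70) lie to the right, mast cell genes (-0.74) and hypoxia genes (-0.45) to the left, and both NF-kB lists centre on -0.02.

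The median difference of the genes that NF-kB is best known to drive lay near that of all genes. Of 38 listed targets measured, 2 were higher (Ccl3 and Olr1) and none was lower, with a median of -0.02 against 0.03 over all genes. Of all genes 0.308% were called higher. In every round 10 of the 38 were lower and 5 were higher, as were 9.92% and 10.5% of all genes. Of 43 subunits and regulators measured, none was called either way, with or without the round block, and 4 had an unadjusted p under 0.05 (764 of all 15254 genes did). Nfkbie, the inhibitor IkB epsilon, was nearest, with an estimate of -0.40 ± 0.15 (adjusted p = 0.74). Tnfaip3, the A20 feedback inhibitor, had -0.55 ± 0.22 (adjusted p = 0.801).

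The kB consensus was looked for on both strands of all promoters, of which 4.51% held it. Among the listed targets with a promoter it stood in 14 of 29 (48.3%), against 6.13% of the 9708 tested genes with a promoter. Of called genes it stood in 1 of 33 that were higher (Celf5) and 1 of 17 that were lower (Shank3). The promoters of Ccl3 and of Nfkbia, the feedback inhibitor IkB alpha, are printed to set a called target without the consensus in this window beside a listed target with it (capitals). They lie at chr11:83649329-83649628 (minus strand) and chr12:55492598-55492897 (minus strand) of GRCm38.p6 (RefSeq). No match says only that these letters are absent from the window.
Ccl3: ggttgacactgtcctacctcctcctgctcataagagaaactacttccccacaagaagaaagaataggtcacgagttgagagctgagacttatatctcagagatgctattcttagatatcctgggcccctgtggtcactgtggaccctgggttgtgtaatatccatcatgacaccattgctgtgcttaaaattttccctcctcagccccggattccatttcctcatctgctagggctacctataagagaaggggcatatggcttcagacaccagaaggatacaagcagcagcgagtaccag
Nfkbia: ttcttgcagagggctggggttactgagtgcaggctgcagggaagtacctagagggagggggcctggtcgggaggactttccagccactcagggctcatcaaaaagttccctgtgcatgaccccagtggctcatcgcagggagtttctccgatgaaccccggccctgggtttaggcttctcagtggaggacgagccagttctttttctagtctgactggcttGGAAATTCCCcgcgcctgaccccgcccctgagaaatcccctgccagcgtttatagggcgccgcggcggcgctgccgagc

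Of 48 interferon-stimulated genes measured, Ifitm6 was called higher and Isg20 lower, and 0.308% and 0.177% of all genes were. The median was -0.17, against 0.03 over all genes, and 9 had an estimate above 0, as had 56.2% of all genes. Isg20, an exonuclease that degrades viral RNA, measured 2.58, 2.24, 2.56 and 1.95 on the D361E arrays, against 3.54, 3.74, 3.93 and 2.96 on the WT arrays. It fell by 1.21 ± 0.23 (adjusted p = 0.0273), and the call ended without D361E replicate 2, 3 or 4 or WT replicate 1, 2 or 3 (up to 0.129). With the round block Ifi204 and Isg15 were called lower too (estimates -1.77 ± 0.38 and -0.72 ± 0.32, adjusted p = 0.0198 and 0.0413 with the block, 0.0546 and 0.935 without). Over the 8 arrays alone the block called neither (adjusted p = 0.0878 and 0.148). In all, 18 of the 48 were lower in every round, as were 9.92% of all genes, and 3 were higher in every round.

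The mRNA of Hif1a was higher in D361E arrays and the median difference of the hypoxia and glycolysis genes measured was -0.45, against 0.03 over all genes. Hif1a encodes the oxygen-regulated subunit of hypoxia-inducible factor, whose amount is set mainly by degradation of the protein; its targets carry out glycolysis and glucose uptake. Hif1a measured 1.00, 0.79, 0.88 and 0.85 on the D361E arrays, against -0.19, -0.48, -0.10 and -0.27 on the WT arrays. Groups were tight and far apart, with a rise of 1.14 ± 0.11, or 2.2-fold (adjusted p = 6.75e-05), kept without any 1 array and with slide as a block (adjusted p = 0.0226). A dimmer probe of Hif1a rose by 2.54, with 1 of 4 WT arrays well above background, so the size of the rise depends on the probe.

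Of 34 hypoxia and glycolysis genes measured (38 listed), Hif1a was the only call without the block, and 18 were lower in every round (9.92% of all genes were). With the round block over 17 arrays 2 were called higher and 8 lower, against 0.793% and 0.833% of all genes. The 8 were Slc2a1, Ankrd37, Egln1, Bnip3, Pdk1, Pgk1, Pfkl and Bnip3l. Without the block none of them was called (adjusted p = 0.607 for Pfkl, 0.752 for Pgk1 and 1.00 for the other 6), and with the round block over the 8 arrays alone none was called either (adjusted p = 0.052 for Slc2a1, the lowest, to 0.196 for Bnip3). Their calls thus need both the pairing and the spread of all 17 arrays. The other rise with the block was Slc16a3, a lactate transporter (0.58 ± 0.14, adjusted p = 0.106 without it, 0.0206 over 17 arrays and 0.138 over 8).

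Slc2a1, the glucose transporter GLUT1, measured 2.30, 2.19, 4.79 and 2.31 on the D361E arrays, against 3.39, 3.61, 5.47 and 3.52 on the WT arrays. Round 3 was the highest in both groups, and within each round the D361E array was the lower, by differences of -1.09, -1.42, -0.68 and -1.21 in rounds 1 to 4 (adjusted p = 0.0042 with the block). Ankrd37, a small HIF target, measured 1.89, 1.70, 3.99 and 0.52 on the D361E arrays, against 2.63, 3.13, 4.76 and 1.69 on the WT arrays. It followed the same course, with differences of -0.74, -1.43, -0.77 and -1.18 (adjusted p = 0.0236 with the block). Pgk1, phosphoglycerate kinase, measured 7.20, 7.19, 7.83 and 6.53 on the D361E arrays, against 7.81, 8.00, 8.22 and 7.52 on the WT arrays. Its differences were -0.61, -0.82, -0.39 and -0.99 (adjusted p = 0.00608 with the block), and here the span between rounds was narrower.

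Bnip3 and Bnip3l, which mark mitochondria for removal, differed by -0.55, -1.01, -0.36 and -1.52 and by -0.52, -0.65, -0.24 and -0.74 in rounds 1 to 4. Egln1, the oxygen sensor that marks HIF for degradation, differed by -0.89, -1.10, -0.52 and -1.30. Pdk1, which turns pyruvate away from mitochondria, differed by -0.72, -0.94, -0.42 and -0.96. The adjusted p with the block was 0.0259 for Bnip3, 0.0379 for Bnip3l, 0.0418 for Egln1, 0.0453 for Pdk1 and 0.0425 for Pfkl, a phosphofructokinase subunit. The list as a whole had medians of -0.03, -0.41, -0.32 and -0.67 in rounds 1 to 4, so round 1 hardly differed, and of 0.01 and -0.74 on the slides that held both groups, whose arrays came from different rounds. Ldha and Gapdh, glycolytic enzymes of the same list, differed by 0.05 ± 0.15 and 0.04 ± 0.17 (named after their values were seen).

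**Figure D4:**
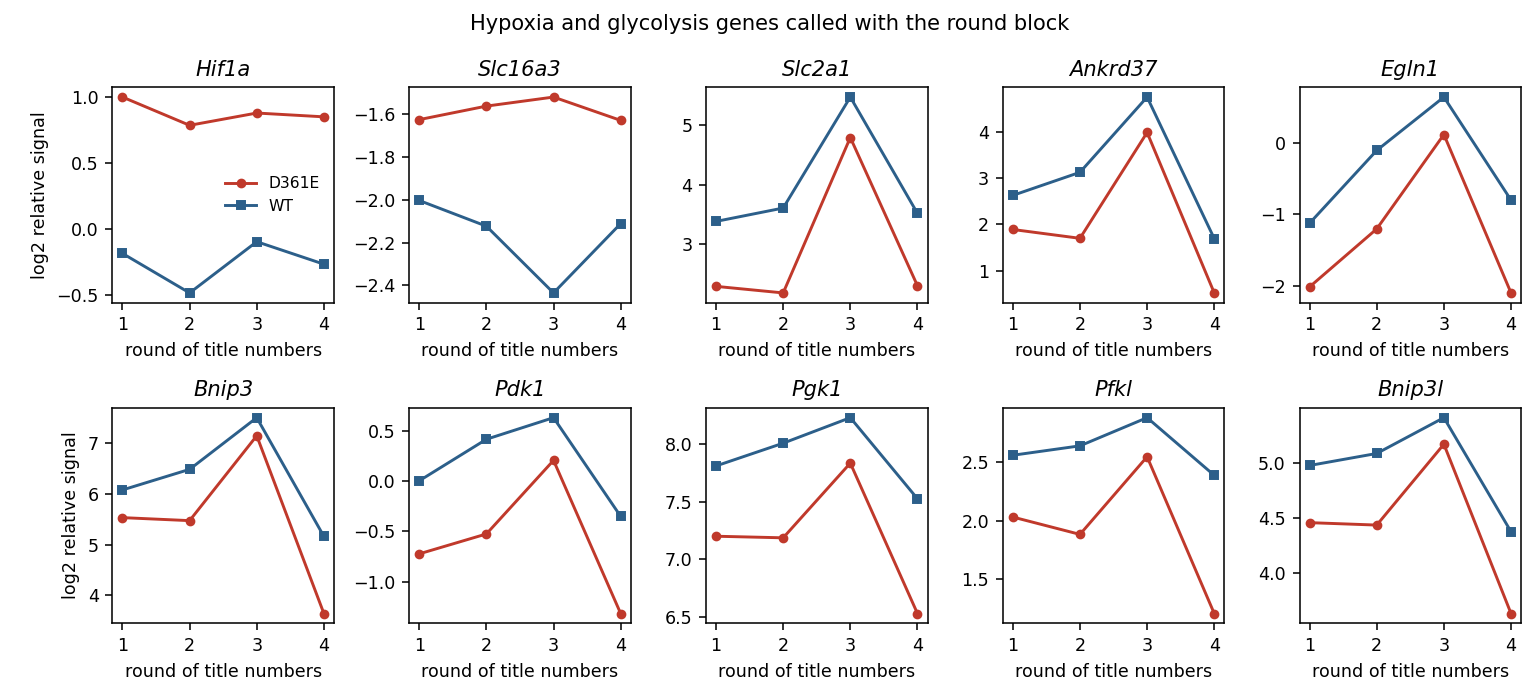
Single arrays of 10 hypoxia and glycolysis genes (log2 signal relative to the 75th percentile) by round, D361E as circles and WT as squares; lines join arrays of a group and carry no order. For the 8 genes called lower with the block over 17 arrays D361E lies under WT in all 4 rounds while round 3 is the highest of both groups; Hif1a and Slc16a3 lie above WT in all 4.

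Other lists held few calls. None of 30 apoptosis genes, 41 cell cycle genes, 31 genes of the integrated stress response, 23 of the unfolded protein response, 17 immediate early genes, 20 of antigen presentation or 21 p53 targets was called by limma, and of 25 STAT5 and Bcr-Abl targets none was called. Unadjusted p was under 0.05 for 0, 1, 1, 0, 1, 1, 2 and 3 of them. In the same order, 5, 3, 7, 7, 5, 1, 0 and 9 were lower in every round, as were 9.92% of all genes. Higher in every round were 0, 1, 0, 0, 1, 2, 8 and 0, as were 10.5% of all genes. With the round block Socs3, a feedback inhibitor of JAK-STAT signals, was called lower (-0.63 ± 0.14, adjusted p = 0.0571, and 0.0191 with it) and the p53 target Tigar higher (0.53 ± 0.24, 0.0173 with it). Neither was called with the block over 8 arrays (adjusted p = 0.169 and 0.208). The medians of these 8 lists lay between -0.23 and 0.16.

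Levels in the fragment groups are given as a description, with no test. For stefins, the single fragments stood with D361E and the pair of fragments with WT: Stfa1 averaged -2.44 ± 0.51 in D361E, -2.06 ± 0.18 in 1-361, -2.11 ± 0.19 in 362-549, -6.82 ± 0.57 in 1-361+362-549 and -5.28 ± 0.65 in WT (mean ± SD). Hbb-bt was higher still in the single fragments, at 1.78 ± 0.73 in D361E, 2.56 ± 0.24 in 1-361, 4.87 ± 0.36 in 362-549, 0.73 ± 0.20 in 1-361+362-549 and -0.60 ± 0.33 in WT. For both, WT and the pair of fragments were the low groups.

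Other rises were highest in D361E. Ccl3 averaged -1.75 ± 0.56 in D361E, -3.88 ± 0.12 in 1-361, -5.22 ± 0.18 in 362-549, -6.87 ± 0.24 in 1-361+362-549 and -4.17 ± 0.44 in WT. Hif1a averaged 0.88 ± 0.09 in D361E, -0.45 ± 0.07 in 1-361, -0.43 ± 0.16 in 362-549, 0.32 ± 0.06 in 1-361+362-549 and -0.26 ± 0.17 in WT. D361E had the highest mean of the 5 groups for 30 of the 47 rises, and it did for 11.9% of all genes. Since these genes were chosen for a difference between D361E and WT, such a count is a description only.

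Among falls, Trpc6 separated the constructs another way: -3.51 ± 0.39 in D361E, 0.43 ± 0.31 in 1-361, -0.25 ± 0.68 in 362-549, -3.33 ± 0.51 in 1-361+362-549 and -0.54 ± 0.47 in WT. It was low in D361E and in the pair of fragments. Grb7 was high in WT alone, at 0.01 ± 0.15 in D361E, -0.29 ± 0.27 in 1-361, -0.11 ± 0.25 in 362-549, -0.15 ± 0.27 in 1-361+362-549 and 1.52 ± 0.12 in WT. WT was the highest of the 5 groups for 12 of the 27 falls, Itih3 and Map3k19 among them, and D361E the lowest for 15. Over all genes WT was the highest for 4.57% and D361E the lowest for 15.9%.

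**Figure D5:**
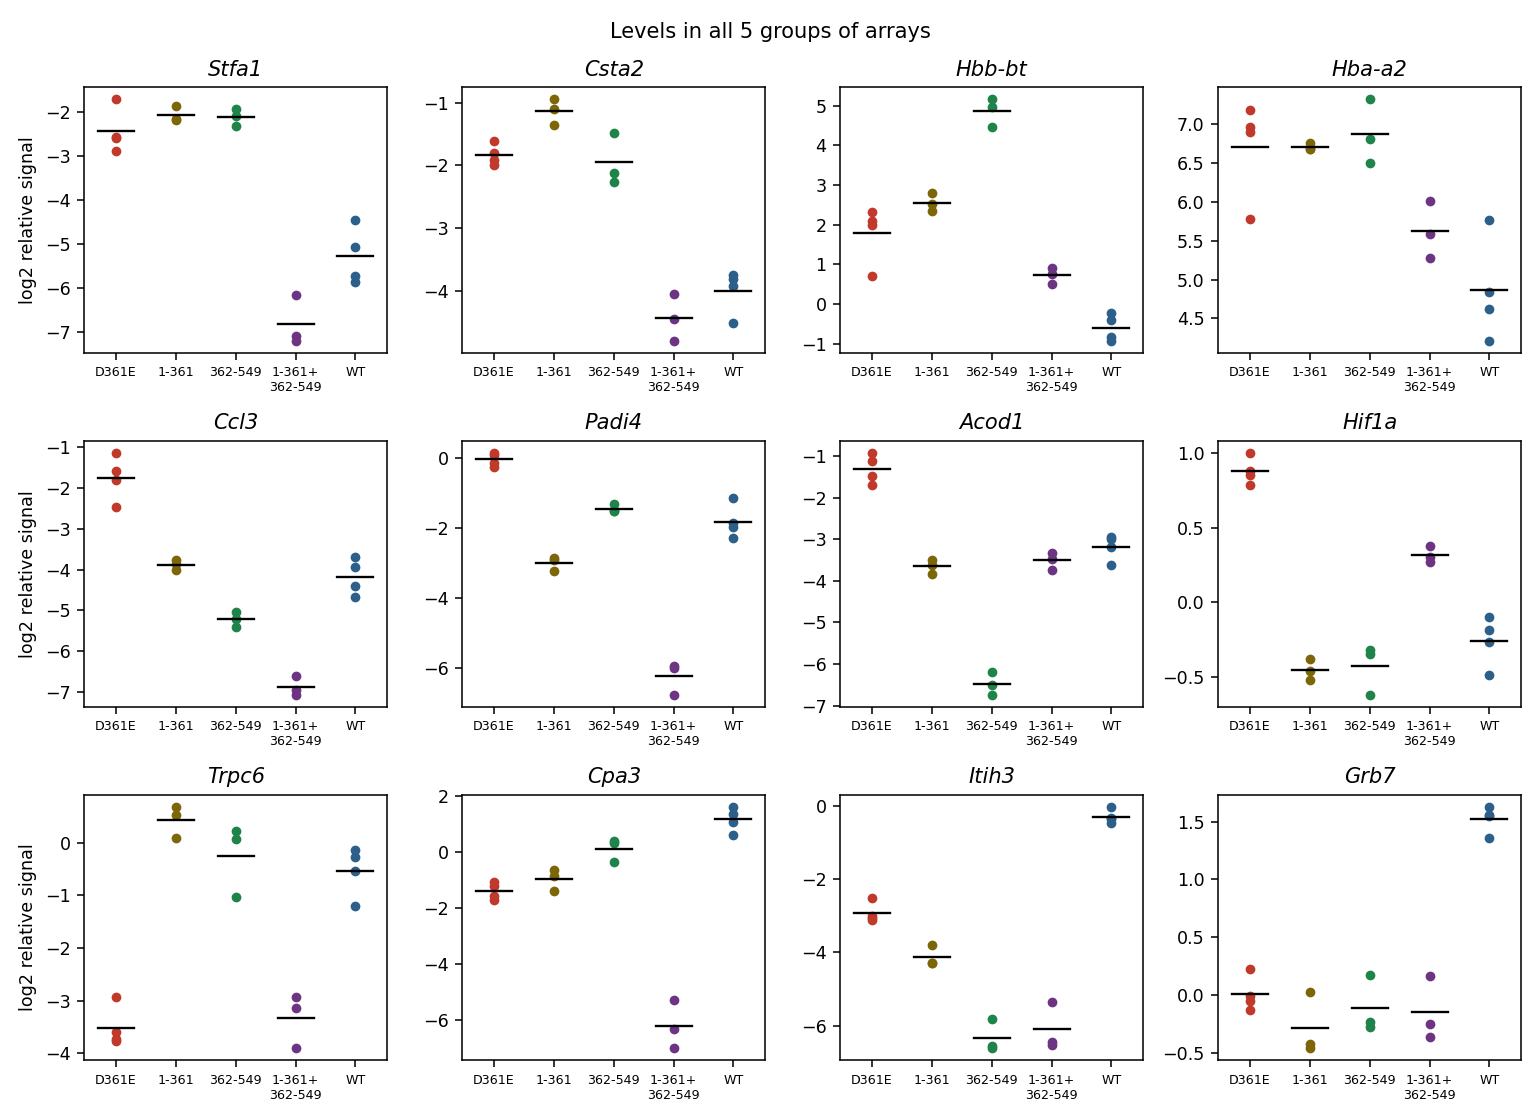
Single arrays (log2 signal relative to the 75th percentile) of 12 called genes in the 5 groups, with bars at the group means; D361E is leftmost and WT rightmost. Stfa1, Csta2, Hbb-bt and Hba-a2 are low in 1-361+362-549 and WT, Ccl3, Padi4, Acod1 and Hif1a are highest in D361E, and Itih3 and Grb7 are highest in WT.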

How the data were processed

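Total RNA was measured on 1-colour Agilent arrays, and the deposited values are spot intensity: per the file headers, the authors' scanner software was Agilent Feature Extraction 10.7.3.1, whose processed signal is background-subtracted. The deposited value table held the same values. Control spots and spots flagged as outliers were left out, a probe was kept if all arrays of any of the 5 groups passed the scanner's background test for it, and the probe with the highest mean stood for its gene. For Map3k19 only the WT group passed in full, and for Ifitm6, Scel and Asb2 only the D361E group. Each array's log2 intensity was set relative to its 75th percentile. The main test was limma 3.58.1 in R 4.3.3 over all 17 arrays (contrast D361E minus WT) with Benjamini-Hochberg adjustment at 0.05; statmod 1.5.0 fitted random blocks. Only the model fit was tested on simulated data, with independent noise and no round or slide effect. The other steps were not tested in this way.

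The labels name no rounds. Rounds were inferred from the leading title numbers, which place the D361E and WT arrays in 4 of them. Deviations of same-round arrays from their group means correlated at 0.108, 0.206, 0.688 and 0.671. All were above 0.1, so rounds were treated as pairs in the fits with that block, while the main fit had no block. The pair of round 1 was weak from both sides. D361E replicate 1 correlated more with WT replicate 3 (0.341), and WT replicate 1 more with D361E replicates 2 and 4 (0.158 and 0.152). Slide was another block. Other alternatives were the scaling, background correction, probe filter, choice of probe, arrays in the fit and leaving out each array.

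Genes named are Rela, called genes with an ordinary symbol, with per-array values for the 12 largest rises and 12 largest falls and called list members, and for uncalled list members up to 3 with the smallest p; others are said to be chosen after their values were seen. The members and lists were chosen with earlier results of these data known. Cells with an empty plasmid were not analysed here.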

Additional observations from a re-analysis of the deposited data

Results flagged for a closer look

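Of 178 groups of 4 arrays looked at (89 genes in D361E and in WT), 8 held an array far from the others, and chance alone sets about 1 in 20 groups apart. Slc2a1 stood apart in round 3 of both groups, at 4.79 on D361E replicate 3 (the nearest other array was at 2.31) and 5.47 on WT replicate 3 (nearest 3.61). Olr1 was low on D361E replicate 1, at -2.79 (nearest -2.21). Lxn was low on the same array, at 1.28 (nearest 1.65). Bfsp2 was low on WT replicate 3, at -1.37 (nearest -0.95), and so was Arl6ip1, at -1.67 (nearest -0.90). Chst11 was low on WT replicate 1, at -2.21 (nearest -1.81), and so was Mcpt4, at -2.20 (nearest -1.44). What set these arrays apart was not tested.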

How the results depend on the processing

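The count of 74 called genes moved most with the background correction and the block. It was 12 with normexp correction, 24 with slide as a fixed block, 43 with only the 8 D361E and WT arrays, 45 with no filter on dim probes (30268 genes tested) and 248 with the replicate block of rounds over 17 arrays. With the replicate block over 8 arrays it was 69, of which 46 were among the 74. Leaving out 1 array gave 39 to 78, with 39 without D361E replicate 2 or WT replicate 1, 40 without WT replicate 2, 44 without D361E replicate 3, 48 without D361E replicate 1 and 78 without WT replicate 4. Every called gene that was measured kept its direction under each alternative except normexp, where 70 of 74 did. Leaving out 1 array could not change it, since the groups of these genes did not overlap, and the round block left the estimates as they were. Under normexp the reversed calls with an ordinary symbol were Cd163l1 (-0.0048), Scel (-0.032) and Ly6c1 (-0.13), and another had no ordinary symbol. Rela, not called, was at 0.12. The cause of these changes was not tested. Signal over background limits the dim genes: for Mirt2, Stfa2l1, Stfa2, Cd163l1, Scel and Map3k19 only a lower bound of the fold was given.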

Other observations

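In all, 174 genes were called only with the round block over 17 arrays, 74 of them higher and 100 lower. Those named here were chosen after their values were seen. Pglyrp1, a peptidoglycan-binding protein of granulocyte granules, differed by 2.66 ± 0.57 (adjusted p = 0.0546 by limma without the block, and 7.83e-04 with it). Gzmc, a granzyme, differed by 1.59 ± 0.34 (adjusted p = 0.0534, and 9.16e-04 with the block, which over 8 arrays gave 0.0776). Rnf150, a RING finger protein, had the lowest estimate of those named, -3.09 ± 0.73 (adjusted p = 0.105, and 3.62e-04 with the block).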
